A study of Mus musculus with 24 samples.

Results

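The 41 genes described here encode the core of the cell death machinery of the mouse: the BCL2 family, the apoptosome and other mitochondrial factors, caspases and their inhibitors, death receptors, and the kinases and pore formers of necroptosis and pyroptosis. They were chosen by name, as a list of cell death genes, out of 45616 genes and unnamed transcripts on the array. Earlier results of these data were known when the list was chosen. Of the 41 genes, 9 encode inhibitors of death and 32 encode promoters of death, and both classes are described apart. All 41 had a probe on the array, 21 of them a single probe and 20 several.

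Total RNA of cultured mouse tumour cells was labelled with Cy3 and hybridized to 24 Agilent expression arrays of 1 colour. The study asked what distinguishes tumour cells that persisted in a dormant state in mice from the parental cells, in a melanoma model and in a myeloid leukemia model. The melanoma arrays held B16-M, the parental B16-F1 line carrying GFP (3 arrays), B16-D, dormant cells derived from it (4 arrays), and B16-D-733 (4 arrays), B16-D-735 (3 arrays) and B16-D-739 (3 arrays), the dormant cells of a second generation recovered from brain. These cells grew in DMEM with 10% FBS. Which of these last 3 lines is B16F1-GFP-DB#1, DB#2 or DB#3 is not given in the sources used here. The leukemia arrays held M0-p20 (4 arrays) and J365-p20 (3 arrays), which the labels call leukemia cells. From the study's methods M0-p20 is taken to be parental DA1-3b and J365-p20 the dormant DA1-3b/D365, which is an inference. The dormant cells came from syngeneic mice vaccinated with irradiated tumour cells that made IL-12 in the leukemia model and GM-CSF in the melanoma model, and they were grown in culture before RNA was taken. The age and sex of the mice, the number of mice behind a line and whether a line is 1 clone are not given in the sources used here. The labels do not say that replicate arrays came from separate cultures, so that p-values measure only the spread between these arrays, which may be technical.

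Apoptosis through the mitochondria is set by the balance of BCL2-type inhibitors, which hold the outer membrane intact, against the pore formers BAX and BAK and the BH3-only proteins that release or activate them. Cytochrome c leaving the mitochondria assembles with APAF1 and caspase-9 into the apoptosome, while death receptors reach the executioner caspases through FADD and caspase-8, and IAP proteins hold caspases in check. Where caspase-8 is not active, RIPK1 and RIPK3 can pass the signal to MLKL, which ruptures the plasma membrane (necroptosis), and inflammatory caspases cleave gasdermin D into a pore (pyroptosis). Melanoma is known for resistance to apoptosis, and *Ripk3* is known to be silent in many tumour lines.

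Of the 6 genes detected in one kind of cell and not in another, promoters are shown for *Ripk3*, *Endog*, *Fas* and *Dapk1*, which encode promoters of death by different routes. Each is the 250 bases before the start of the gene, taken from RefSeq on GRCm38.p6 and written 5′ to 3′ on the strand of the gene. The capitals mark CG dinucleotides, the site of DNA methylation. *Ripk3* lies on chr14:55788858-55789107, minus strand. *Endog* lies on chr2:30171274-30171523, plus strand. *Fas* lies on chr19:34290409-34290658, plus strand. *Dapk1* lies on chr13:60601961-60602210, plus strand.
Ripk3: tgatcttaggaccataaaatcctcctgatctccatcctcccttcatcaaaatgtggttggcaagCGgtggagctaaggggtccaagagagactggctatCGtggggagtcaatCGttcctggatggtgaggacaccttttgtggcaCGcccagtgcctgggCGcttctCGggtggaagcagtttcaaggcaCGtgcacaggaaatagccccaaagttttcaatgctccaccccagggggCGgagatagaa
Endog: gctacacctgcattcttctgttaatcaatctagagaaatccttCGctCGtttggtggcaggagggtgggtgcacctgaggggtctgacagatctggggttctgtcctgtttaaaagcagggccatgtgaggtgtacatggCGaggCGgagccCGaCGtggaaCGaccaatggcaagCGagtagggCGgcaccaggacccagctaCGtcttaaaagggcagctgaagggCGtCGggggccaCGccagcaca
Fas: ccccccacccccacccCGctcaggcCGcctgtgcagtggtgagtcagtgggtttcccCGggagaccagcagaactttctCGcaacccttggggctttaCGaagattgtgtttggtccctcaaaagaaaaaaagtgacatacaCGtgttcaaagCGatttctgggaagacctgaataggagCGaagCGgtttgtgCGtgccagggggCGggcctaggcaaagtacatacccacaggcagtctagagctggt
Dapk1: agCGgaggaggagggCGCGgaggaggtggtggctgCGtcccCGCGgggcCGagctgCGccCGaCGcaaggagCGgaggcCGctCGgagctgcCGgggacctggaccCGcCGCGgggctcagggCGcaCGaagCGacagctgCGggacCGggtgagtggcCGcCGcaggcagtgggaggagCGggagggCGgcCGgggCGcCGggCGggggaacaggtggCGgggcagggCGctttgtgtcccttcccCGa
The *Ripk3* window holds 8 CG dinucleotides, more than 57.0% of 32851 promoters of this length. The *Endog* window holds 13 CG dinucleotides, the *Fas* window 11 and the *Dapk1* window 33, and the median of all promoters is 6. The windows of the other two genes, not printed, hold 12 CG dinucleotides for *Bok* and 6 for *Birc3*. GGGCGG stands on either strand in the windows of these genes other than *Birc3*, as in 32.7% of all promoters, and TATAAA stands in none of them, as it does in 12.4%. These letters describe the windows only. Of the 41 genes, 36 matched the promoter table; *Bik*, *Pmaip1*, *Tnfrsf10b*, *Gsdmd* and *Htra2* did not.

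Levels are given as the log2 signal of an array relative to the 75th percentile of that array, so that 1 unit is a 2-fold difference between arrays for the same gene. Levels of different genes rest on different probes and are not compared. Of 24 arrays, B16-D replicate 2 had 90.3% of its spots well above the background where the other 23 arrays had 46.0 to 55.8%, and it was left out of all means and tests unless stated. B16-D-733 replicates 1 and 9 bear the same sample number, lay on the same slide and differed by an SD of 0.22 (r = 0.997), the smallest difference of any pair of arrays of 1 line. Whether they came from 1 extract is not given in the sources used here, so that they are counted as 2 arrays with the averaged values beside. All 7 pigment cell markers were detected in every melanoma line, but also 5 of them in M0-p20 and 4 in J365-p20. *Mlana* and *Tyrp1* were on no leukemia array. Their summed signal was 1404 to 1659 in the melanoma lines and 1.49 to 6.44 in the leukemia lines. All 7 leukocyte markers were detected in both leukemia lines, but also 3 in every melanoma line. *Ptprc* and *Tyrobp* were on no melanoma array used. The summed signal was 64.9 to 85.1 in the leukemia lines and 3.15 to 7.66 in the melanoma lines. *Fcer1g* did not separate the parental lines, at -1.74 in B16-M and -1.63 in M0-p20. Each of the 3 slides held arrays of all 5 melanoma lines and of the leukemia lines. The titles of B16-D replicates 1, 2 and 3 and of B16-D-733 replicates 1, 2 and 9 carry the same date. No other title carries a date, and what it marks is not given in the sources used here. Its part in the differences of these 2 lines from the others was not tested.

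The cell death machinery was mostly detected in every line. Detection in a line needed a probe well above the background on 50% or more of the line's arrays. By this measure 33 of 41 genes were detected in B16-M and 34 in each of the other 6 lines, and 31 were detected in all 7 lines. *Bik*, *Hrk* and *Pmaip1*, which encode BH3-only proteins, and *Casp12*, which encodes a caspase of the endoplasmic reticulum, were detected in no line. *Fas*, *Dapk1* and *Birc3* were detected in the leukemia lines alone, *Bok* and *Endog* in the melanoma lines alone, and *Ripk3* in the dormant melanoma lines alone.

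**Figure D1:**
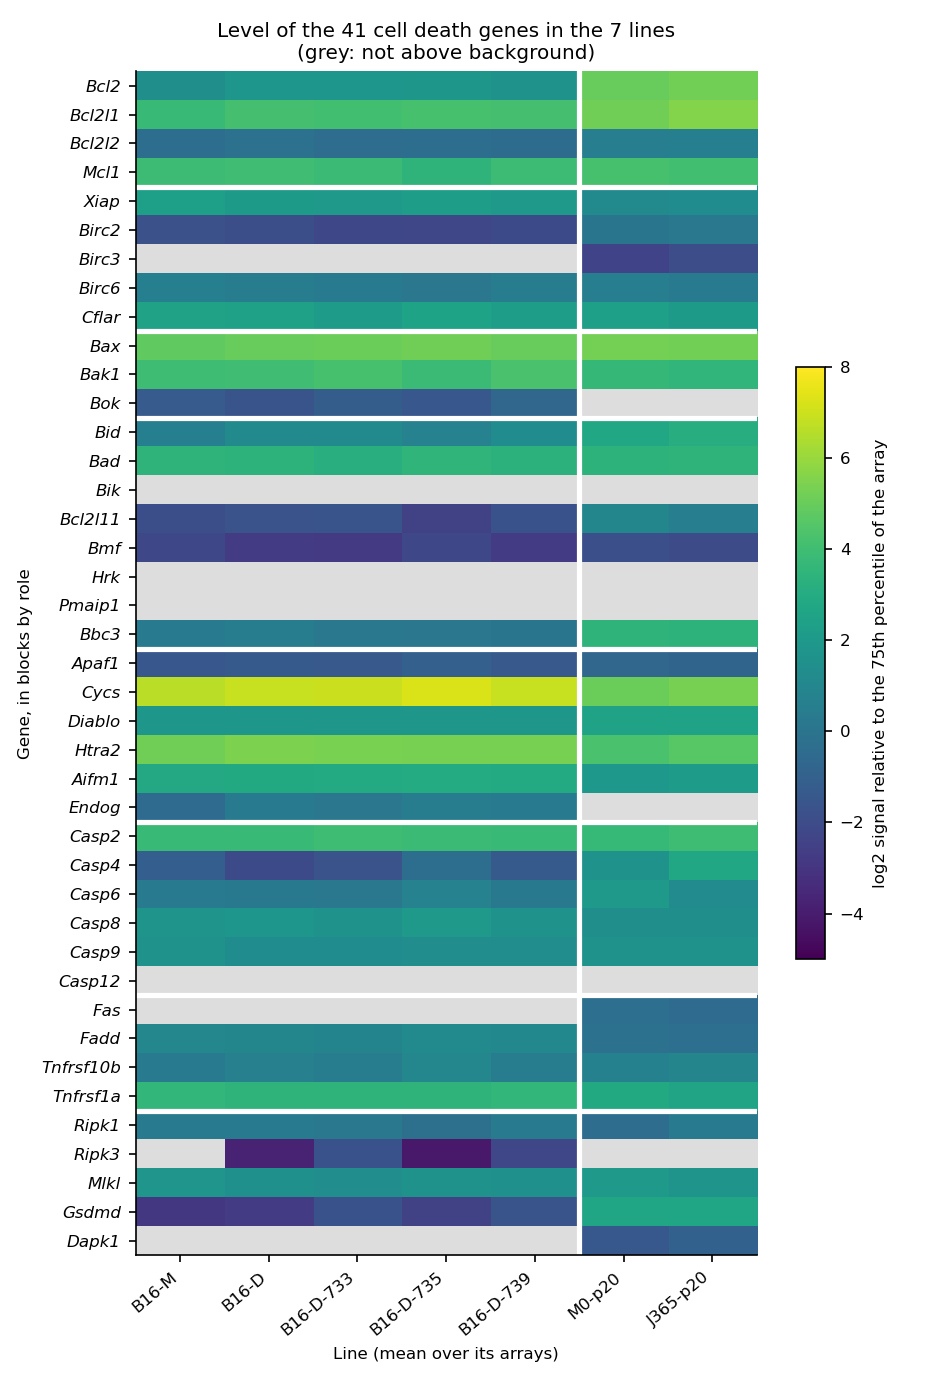
Mean level (log2 signal relative to the 75th percentile of the array) of the 41 cell death genes in the 7 lines, with rows grouped by role and read along a row only. Grey cells mark genes that were not well above the background in a line: *Ripk3* is coloured in the 4 dormant melanoma lines alone, *Fas*, *Dapk1* and *Birc3* in the 2 leukemia lines, and 31 genes in all 7 lines.

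In dormant melanoma cells few of these genes differed from B16-M. Those that did were mainly promoters of death that stood higher in the dormant lines, but 26 of the 34 genes tested encode promoters. Whether the calls favour either class was not tested. *Ripk3* and *Endog* rose in all 4 dormant lines, *Bid* in 3 and *Gsdmd* in 2. Against B16-M, 3 of 34 tested genes changed in B16-D (8.82%), where 3.6% of all 24310 tested genes changed. In B16-D-733 the count was 5 of 34 (14.7%) against 5.57% of all genes. In B16-D-735 it was 5 of 34 (14.7%) against 5.03%. In B16-D-739 it was 4 of 34 (11.8%) against 3.71%. *Ripk3* entered the test only through the dormant lines, where it is high, and without it the counts fall by 1 gene each. With any 1 array left out, the counts ran from 1 to 3 in B16-D, 1 to 2 in B16-D-733, 2 to 3 in B16-D-735 and 1 to 4 in B16-D-739. Of the 8 inhibitors tested, none was called in B16-D, B16-D-733 or B16-D-739 (limma, 1, 2 and 1 at an unadjusted p under 0.05), and *Mcl1* fell in B16-D-735. The median change of the 34 genes was 0.06 in B16-D, -0.02 in B16-D-733, 0.09 in B16-D-735 and 0.03 in B16-D-739, beside medians over all genes of -0.04, 0.03, -0.01 and 0.00. The 4 comparisons share the 3 B16-M arrays. As the list was chosen with earlier results of these data known, the shares beside those of all genes only describe it.

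*Ripk3* encodes the kinase that passes the necroptotic signal from RIPK1 to MLKL. Its promoter is the first of those printed above. On the 3 B16-M arrays its signal stood at -6.95, -6.85 and -6.96 and was not well above the background on any of them. In B16-D it stood at -4.35, not well above the background, and at -3.36 and -3.36, with -2.81 on replicate 2. In B16-D-733 it stood at -1.51, -1.81, -1.80 and -1.86. Every dormant melanoma array, then, lay above every parental array, and B16-D-733 was the highest line.
In B16-D-735 *Ripk3* stood at -4.18, -4.06 and -4.11, and in B16-D-739 at -2.20, -2.45 and -2.09. On the 7 leukemia arrays it lay between -7.27 and -6.70, not well above the background on any. The gene was thus measured in the dormant melanoma lines alone, in the order B16-D-733, B16-D-739, B16-D and B16-D-735 by mean.
Because B16-M has only an upper limit, the change has a lower bound. Bounds use the lowest signal that counted as well above the background on each B16-M array. The p-values given here come from a fit of every gene on the array with no filter on dim probes, since the filter let *Ripk3* in through the lines where it is high. *Ripk3* was at least 2.32-fold higher in B16-D (2 of 3 arrays above the background, adjusted p = 4.29e-06, limma) and at least 8.92-fold higher in B16-D-733 (adjusted p = 1.18e-08, limma). It was at least 1.72-fold higher in B16-D-735 (adjusted p = 8.48e-06, limma) and at least 6.30-fold higher in B16-D-739 (adjusted p = 8.33e-08, limma).
Among the dormant lines, *Ripk3* rose by 1.94 (SE 0.20, adjusted p = 0.000291, limma) from B16-D to B16-D-733 and by 1.44 (SE 0.22, adjusted p = 0.0113, limma) to B16-D-739, with the arrays apart in both. The level in B16-D-735 did not pass the test against B16-D.
Within each slide that could be compared, 2 for B16-D and 3 for its derived lines, *Ripk3* stood above B16-M, by 3.10 to 3.60 in B16-D, 5.12 to 5.34 in B16-D-733, 2.67 to 2.89 in B16-D-735 and 4.40 to 4.87 in B16-D-739. With normexp background correction the fitted differences shrank to 0.67 in B16-D, 1.80 in B16-D-733 and 1.44 in B16-D-739, and that of 0.42 in B16-D-735 was no longer called (adjusted p = 0.0701, limma). The rise from B16-D to B16-D-739 was not called without B16-D-739 replicate 0 (1.42) or 2 (1.36).

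*Endog* encodes endonuclease G, a mitochondrial nuclease that cuts DNA after its release. It stood at -0.44, -0.62 and -0.29 in B16-M and at 0.59, 0.21 and 0.06 in B16-D. In B16-D-733 it stood at 0.17, 0.04, 0.20 and 0.20. In B16-D-735 it stood at 0.59, 0.57 and 0.22, and in B16-D-739 at 0.34, 0.15 and 0.54. All arrays of the dormant lines used in the tests lay above zero and all parental arrays below it, with no overlap, and B16-D replicate 2 at -0.14 lay between.
*Endog* rose 1.67-fold in B16-D (log2 change 0.74, SE 0.16, adjusted p = 0.0223, limma) and 1.52-fold in B16-D-733 (0.60, SE 0.15, adjusted p = 0.0321, limma). It rose 1.88-fold in B16-D-735 (0.91, SE 0.16, adjusted p = 0.0042, limma) and 1.74-fold in B16-D-739 (0.80, SE 0.16, adjusted p = 0.0123, limma). It was not called between B16-D and any of the second-generation lines.
The call in B16-D-735 held with any 1 array left out. The call in B16-D-733 was lost without B16-M replicate 0 or 1 or any B16-D-733 array (0.52 to 0.64), that in B16-D without B16-M replicate 0 or 1 or B16-D replicate 0 or 1 (0.59 to 0.78), and that in B16-D-739 without B16-M replicate 1 or B16-D-739 replicate 2 (0.70 and 0.71).

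*Bid* encodes a BH3-only protein that caspase-8 cuts to carry the death receptor signal to the mitochondria. It stood at 0.77, 0.43 and 0.70 in B16-M and at 1.34, 1.19 and 1.14 in B16-D, with 0.96 on replicate 2. In B16-D-733 it stood at 1.32, 1.23, 1.35 and 0.96, and in B16-D-739 at 1.27, 1.29 and 1.42. These 3 lines lay above B16-M on every array. In B16-D-735 *Bid* stood at 0.67, 0.99 and 0.62, which overlapped B16-M.
*Bid* rose 1.51-fold in B16-D (log2 change 0.59, SE 0.14, adjusted p = 0.0365, limma), 1.50-fold in B16-D-733 (0.58, SE 0.13, adjusted p = 0.0198, limma) and 1.61-fold in B16-D-739 (0.69, SE 0.14, adjusted p = 0.0135, limma). The log2 difference in B16-D-735 was 0.13 (95% interval -0.18 to 0.43), which was not called.
The call in B16-D was lost without B16-M replicate 1 or 2 or any B16-D array (0.49 to 0.63), that in B16-D-733 without B16-M replicate 1 or 2 or B16-D-733 replicate 0, 1 or 2 (0.48 to 0.62), and that in B16-D-739 without B16-M replicate 1 or B16-D-739 replicate 2 (0.59 and 0.64).

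*Gsdmd* encodes gasdermin D, the pore former of pyroptosis. It stood at -3.07, -3.02 and -2.62 in B16-M, at -2.04, -1.80, -1.39 and -1.67 in B16-D-733, and at -2.07, -1.50 and -1.25 in B16-D-739. Both dormant lines lay above all parental arrays. In B16-D *Gsdmd* stood at -3.34, -2.06 and -2.63 and in B16-D-735 at -2.74, -1.95 and -2.70, and both overlapped B16-M.
*Gsdmd* rose 2.26-fold in B16-D-733 (log2 change 1.18, SE 0.30, adjusted p = 0.0389, limma) and 2.46-fold in B16-D-739 (1.30, SE 0.32, adjusted p = 0.0437, limma). Its second probe gave differences of 1.11 and 1.28 in these lines, with 1 of 3 B16-M arrays above the background. The call in B16-D-733 was lost without any 1 B16-M array or B16-D-733 replicate 1, 2 or 9 (1.07 to 1.32), and the call in B16-D-739 without any 1 B16-M array or B16-D-739 replicate 1 or 2 (1.12 to 1.44). With normexp background correction the change in B16-D-733 was 0.77 and not called.

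*Mlkl* encodes the protein that RIPK3 phosphorylates to rupture the membrane. It stood at 1.78, 1.72 and 1.77 in B16-M and at 1.39, 1.31, 1.50 and 1.34 in B16-D-733. *Mlkl* fell by 0.37 on the log2 scale in B16-D-733 (SE 0.10, adjusted p = 0.0442, limma), or 1.30-fold, with the arrays apart. It stood between 1.46 and 1.68 in B16-D, 1.48 and 1.81 in B16-D-735 and 1.52 and 1.57 in B16-D-739, with no call. *Ripk3* and *Mlkl*, 2 successive steps of necroptosis, thus changed in opposite directions in B16-D-733. The call of *Mlkl* was lost when any 1 of the 7 arrays was left out (-0.41 to -0.35).

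In B16-D-733 and B16-D-739, residuals of replicates of the same number as those of B16-M correlated at 0.35 to 0.83. In B16-D-739 every replicate lay on the slide of the B16-M replicate of its number, and in B16-D-733 only replicate 2 did. Number and slide cannot be told apart for B16-D-739 or for B16-D-733 replicate 2. B16-D-733 replicate 0 correlated at 0.58 with the B16-M array of its number and at -0.04 with that of its slide. For B16-D-733 replicate 1 these values were 0.35 and 0.30. With the replicate number as a block, B16-D-733 kept 3 calls against B16-M, *Bid* (0.67, adjusted p = 0.0428, limma), *Gsdmd* (1.16, adjusted p = 0.0115, limma) and *Ripk3* (5.21, adjusted p = 0.00069, limma). With replicates 1 and 9 averaged, *Bid* (0.62, adjusted p = 0.0242, limma) and *Ripk3* were called. The summed signal of the 5 brain markers was 7.40 to 8.61 in B16-D-733 beside 3.37 to 5.91 in B16-M. It was 2.40 to 5.45 in the other dormant melanoma lines, 4.46 to 14.3 in M0-p20 and 5.87 to 8.36 in J365-p20. Of the markers, *Mbp*, a myelin protein, stood at 2.25 in B16-D-733 beside 0.10 in B16-M, *Snap25* at 1.70 beside 1.63, *Aqp4* at -3.80 beside -3.95 and *Gfap* at -4.33 beside -3.69, and *Syt1* was above the background on no array of either line. *Mbp* stood at -0.35 in B16-D-735 and -1.45 in B16-D-739. Their part in the B16-D-733 results was not tested.

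**Figure D2:**
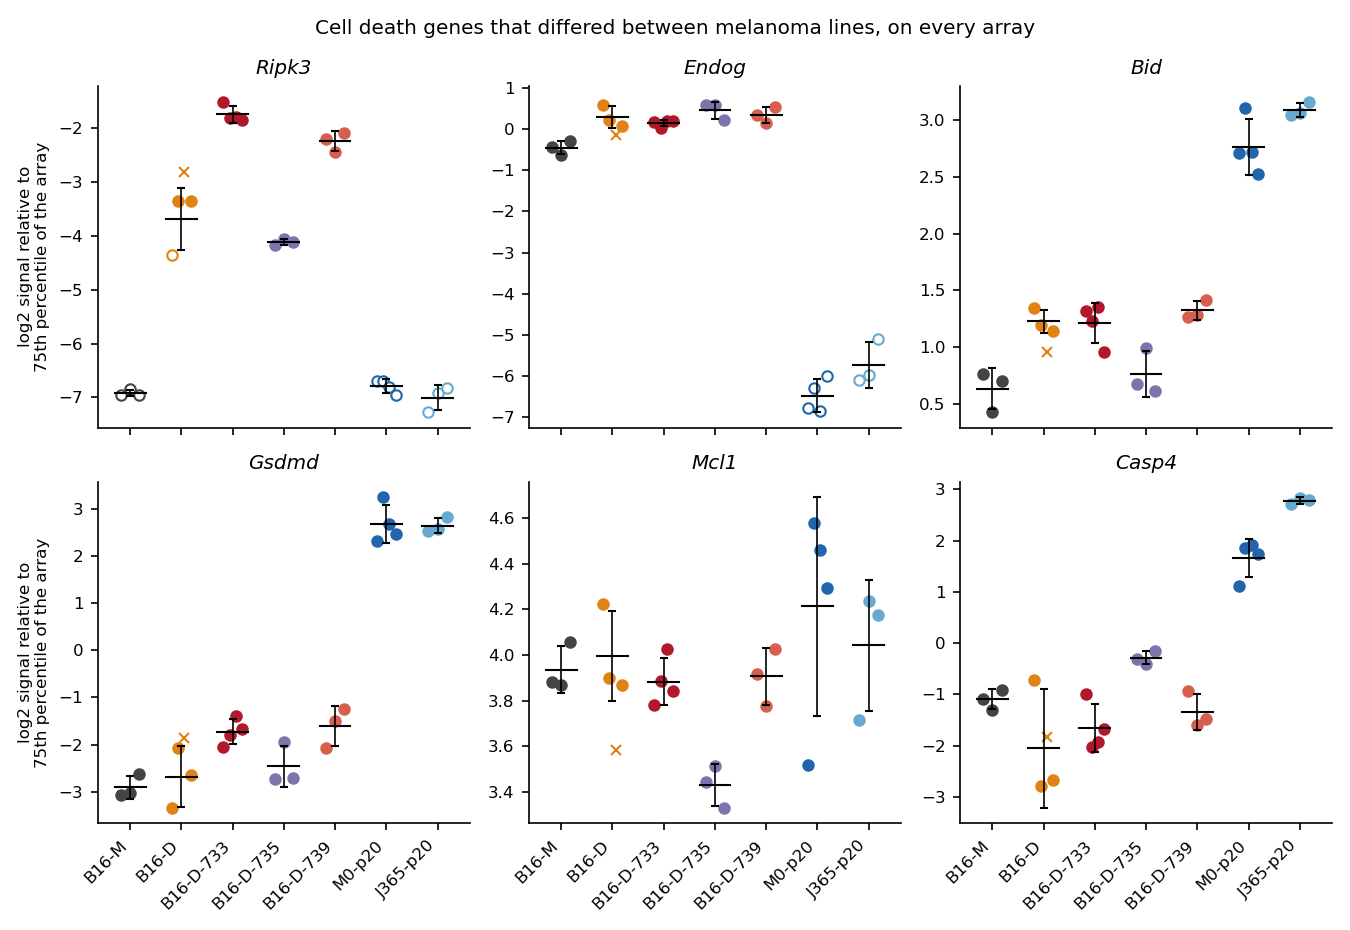
Level of *Ripk3*, *Endog*, *Bid*, *Gsdmd*, *Mcl1* and *Casp4* on each array of the 7 lines (y axis, log2 signal relative to the 75th percentile of the array). Points are arrays, open points were not well above the background, crosses are B16-D replicate 2, which enters no mean, and black lines with bars are the mean and SD. *Ripk3* sits between -6.96 and -6.85 on the B16-M arrays and between -1.86 and -1.51 on those of B16-D-733.

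In B16-D-735 the apoptosome genes *Apaf1* and *Cycs* rose and the inhibitor *Mcl1* fell against B16-M, while *Bid* and *Gsdmd* were not called. *Apaf1* and *Cycs* were not called between B16-D-735 and B16-D, and their differences from B16-M had the same sign in every dormant line (0.11 to 0.44 and 0.24 to 0.65).
*Apaf1*, which encodes the scaffold of the apoptosome, stood at -1.50, -1.32 and -1.57 in B16-M and at -1.05, -0.97 and -1.03 in B16-D-735. *Cycs*, which encodes cytochrome c, stood at 6.79, 6.40 and 6.73 in B16-M and at 7.40, 7.30 and 7.17 in B16-D-735. *Mcl1*, which encodes a short-lived inhibitor of BAK and BAX, stood at 3.88, 3.87 and 4.06 in B16-M and at 3.44, 3.52 and 3.33 in B16-D-735. In all 3 genes the arrays of both lines were apart.
*Apaf1* rose 1.36-fold (log2 change 0.44, SE 0.11, adjusted p = 0.0321, limma) and *Cycs* rose 1.57-fold (0.65, SE 0.14, adjusted p = 0.0187, limma). *Mcl1* fell by 0.51 on the log2 scale (SE 0.12, adjusted p = 0.0288, limma), or 1.42-fold. A second probe gave 0.44 for *Apaf1* and 0.65 for *Cycs*.
*Mcl1* lost its call when any 1 of the 6 arrays was left out (-0.55 to -0.45). *Apaf1* lost it without B16-M replicate 0 or 2 or any B16-D-735 array (0.39 to 0.46), and *Cycs* without B16-M replicate 1 or B16-D-735 replicate 0 or 1 (0.53 to 0.64).

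Against B16-D, 3 of 34 genes changed in B16-D-735 (8.82%), where 8% of all genes changed. *Casp4*, an inflammatory caspase that senses lipopolysaccharide and cleaves gasdermin D, stood at -0.72, -2.79 and -2.66 in B16-D and at -0.31, -0.40 and -0.15 in B16-D-735. *Casp4* rose 3.41-fold (log2 change 1.77, SE 0.45, adjusted p = 0.0284, limma). The arrays were apart, although B16-D replicate 0 stood close to B16-D-735 and apart from the other arrays of its line. It is the only B16-D array without a date in its title, as are all B16-D-735 arrays, and the part of this was not tested.
Without B16-D replicate 0 the change of *Casp4* was 2.44 and called. The call was lost without B16-D replicate 1 or 3 or any B16-D-735 array (1.41 to 1.83).
*Mcl1* fell by 0.57 on the log2 scale from B16-D, at 4.22, 3.90 and 3.87, to B16-D-735 (SE 0.12, adjusted p = 0.0121, limma). *Ripk1*, the kinase upstream of RIPK3, stood at 0.70, 0.44 and 0.14 in B16-D and at -0.38, 0.07 and -0.28 in B16-D-735. *Ripk1* fell by 0.63 (SE 0.17, adjusted p = 0.0377, limma), with the arrays apart. A second probe of *Ripk1* gave a difference of -0.13. The *Mcl1* call was lost without B16-D-735 replicate 2 (-0.52), and the *Ripk1* call without B16-D replicate 0 or 1 or B16-D-735 replicate 0 or 2 (-0.62 to -0.49).
The summed signal of the 6 fibroblast markers was 1.09 to 1.51 in B16-D-735, where 3 were detected, beside 0.284 to 0.765 in the other melanoma lines. *Col1a2* was above the background on every melanoma array used, with a mean of -0.15 in B16-D-735 and -0.89 in B16-M. *Col1a1* stood at -3.92 in B16-D-735 (3 of 3 arrays above it) and at -4.87 in B16-M (1 of 3). *Dcn* was well above the background on all 3 B16-D-735 arrays, with a mean of -1.94, and on no other array used, while *Col3a1*, *Lum* and *Pdgfra* were above it on no B16-D-735 array. *Pdgfra* stood at -6.12 there and at -3.76 in B16-M, above the background on all 3 B16-M arrays. Their part in the B16-D-735 results was not tested. In bulk RNA, fewer cells of a type and less RNA per cell cannot be told apart.

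Against B16-D, *Ripk3* was the only 1 of 34 genes called in B16-D-733 (2.94%, beside 0.481% of all genes). In B16-D-739, 2 of 34 genes were called (5.88%, beside 0.309% of all genes), *Ripk3* and *Bok*. *Bok*, which encodes a pore former related to BAX, stood at -1.48, -1.81 and -1.64 in B16-D and at -0.53, -0.72 and -0.85 in B16-D-739. *Bok* rose 1.92-fold (log2 change 0.94, SE 0.18, adjusted p = 0.0476, limma), with the arrays apart. The call was lost when any 1 of the 6 arrays was left out (0.86 to 1.02). In B16-M *Bok* stood at -1.05, -1.36 and -1.34, between both lines. These comparisons share the B16-D arrays with each other.

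The other members stayed close to B16-M in level. In B16-D, 30 of the 31 genes not called differed from B16-M by less than 0.5 on the log2 scale, and the exception was *Casp4* at -0.96, with arrays overlapping. The count was 27 of 29 in B16-D-733, 25 of 29 in B16-D-735 and 28 of 30 in B16-D-739. The widest differences without a call were -0.57 for *Bmf* in B16-D-733, 0.81 for *Casp4* in B16-D-735 and 0.55 for *Bok* in B16-D-739. A p that misses the threshold does not show that these levels are the same. *Bcl2*, the founding inhibitor, stood at 1.45 ± 0.14 (SD, n = 3) in B16-M and between 1.67 and 1.86 as the mean of the dormant lines, with no call. *Bax* stood at 4.80 ± 0.08 (SD, n = 3) in B16-M and at means of up to 5.19 in the dormant lines, with no call. *Xiap*, which blocks caspases directly, stood at 2.34 ± 0.09 (SD, n = 3) in B16-M and at means of 2.04 to 2.27 in the dormant lines, with no call.
With the slide as a block, B16-D-733 also gave *Birc2* (-0.38, adjusted p = 0.0474, limma) and *Xiap* (-0.29, adjusted p = 0.0493, limma). B16-D-735 gave *Bax* (0.39, adjusted p = 0.0445, limma), *Birc2* (-0.46, adjusted p = 0.0299, limma) and *Ripk1* (-0.58, adjusted p = 0.0116, limma) beside the 5 calls named. Within each slide that held both lines (2 where B16-D was one of them, 3 otherwise) the changes called in the melanoma lines had the sign of the pooled value.

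**Figure D3:**
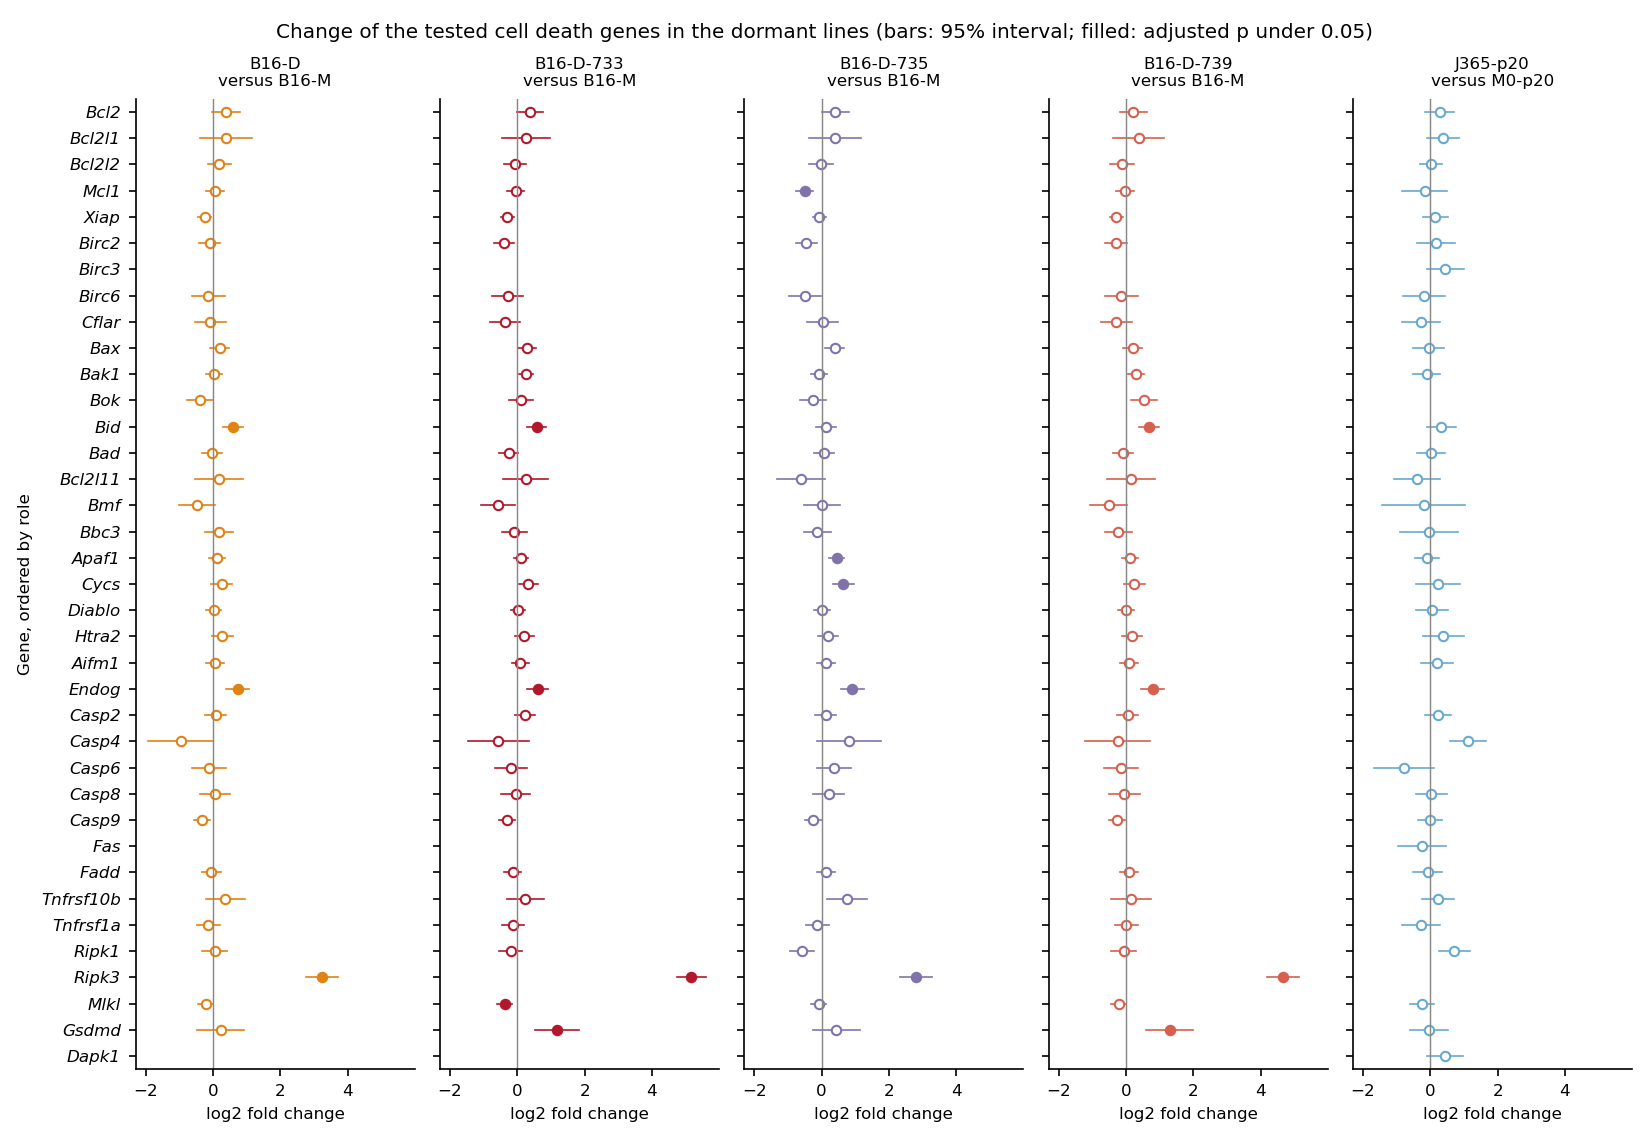
Log2 change (x axis) with its 95% interval of the tested cell death genes in the 4 dormant melanoma lines against B16-M and in J365-p20 against M0-p20. Filled points have an adjusted p under 0.05: *Ripk3* and *Endog* are filled in all 4 melanoma panels, *Bid* in 3 and *Gsdmd* in 2, and no point is filled for J365-p20, where *Casp4* at 1.13 lies farthest to the right.

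In the leukemia model none of 34 genes tested passed between J365-p20 and M0-p20 (limma, 2 at an unadjusted p under 0.05), where 1.07% of all 22967 genes changed. In simulated data this fit called 0% of log2 changes of 0.5, 16% of 1 and 56% of 2. The fit of B16-D against B16-M called 8%, 48% and 78%. Changes of the size called in melanoma could thus often be missed in leukemia. Those with an unadjusted p under 0.05 were *Casp4* and *Ripk1*. *Casp4* stood at 1.10, 1.85, 1.91 and 1.74 in M0-p20 and at 2.71, 2.83 and 2.80 in J365-p20. *Ripk1* stood at -0.55, 0.01, -0.40 and -0.49 in M0-p20 and at 0.24, 0.23 and 0.58 in J365-p20. For both genes the 2 lines did not overlap.
The difference was 1.13 for *Casp4* (SE 0.23, adjusted p = 0.0985, limma) and 0.71 for *Ripk1* (SE 0.20, adjusted p = 0.338, limma). *Casp4* passed with normexp background correction (1.12, adjusted p = 0.0365, limma) and without M0-p20 replicate 0 (adjusted p = 0.0489, limma), which stood lowest of its line.
*Casp6*, an executioner caspase, stood at 1.07, 2.64, 2.33 and 2.13 in M0-p20 and at 0.84, 1.44 and 1.50 in J365-p20, a difference of -0.78 (95% interval -1.68 to 0.11) that was not called. Of the 34 genes, 31 differed by less than 0.5 on the log2 scale, and the median was 0.02 beside -0.02 for all genes. *Bcl2l1*, which encodes BCL-XL, differed by 0.38 (95% interval -0.10 to 0.87), and *Bax* by -0.05 (95% interval -0.51 to 0.41).

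Whether dormancy changed these genes differently in melanoma than in leukemia was tested directly, as the change from B16-M to B16-D minus the change from M0-p20 to J365-p20. None of 31 genes passed (limma, 3 at an unadjusted p under 0.05), where 1.36% of 20817 genes passed. The 3 were *Casp4* at -2.09 (SE 0.54, adjusted p = 0.0726, limma), *Ripk1* at -0.66 (adjusted p = 0.343, limma) and *Xiap* at -0.39 (adjusted p = 0.343, limma). *Casp4* passed with normexp background correction (-1.83, adjusted p = 0.0136, limma), and *Ripk1* with the slide as a block (-0.74, adjusted p = 0.0105, limma). *Ripk3* and *Endog* were not in this test, as the leukemia lines had no signal above the background for either.

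Between M0-p20 and B16-M, 21 of 31 genes changed (67.7%), 13 higher and 8 lower in M0-p20, beside 51.7% of all 20817 genes. The median difference was 0.28 for the 31 genes and 0.22 for all genes, so that values are read against this shift. Of the 8 inhibitors tested 5 changed, 4 higher and 1 lower, and of the 23 promoters of death 16 changed, 9 higher and 7 lower. Tissue of origin and line cannot be told apart in this comparison.

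Of the 41 genes, 5 were detected in 1 parental line alone. *Fas*, the death receptor of FAS ligand, stood at -1.05, 0.20, -0.02 and -0.05 in M0-p20 and at -0.57, -0.47 and -0.38 in J365-p20. On the 16 melanoma arrays used it lay between -7.24 and -5.63, not well above the background on any. *Fas* was at least 25.5-fold higher in M0-p20 than in B16-M.
*Dapk1*, a calcium-dependent kinase that promotes death, stood at -1.94, -1.18, -1.20 and -1.30 in M0-p20, at least 11.3-fold above B16-M. *Birc3*, the IAP that NF-kB induces, stood at -2.88, -2.08, -2.33 and -2.20 in M0-p20, at least 5.77-fold above B16-M. In J365-p20 *Dapk1* stood at -1.17, -0.86 and -0.85 and *Birc3* at -1.76, -2.20 and -1.82, close to M0-p20. B16-D replicate 2 alone among the melanoma arrays gave a signal above the background for *Dapk1* (-4.73) and *Birc3* (-2.85).
In the other direction, *Endog* was at least 18.6-fold and *Bok* at least 10.7-fold higher in B16-M, with no leukemia array above the background. *Endog* lay between -6.84 and -5.09 on the leukemia arrays and *Bok* between -7.30 and -6.49. These 5 genes were outside the test, which needed a signal in both models, and their bounds carry no p.

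Among inhibitors measured in both parental lines, *Bcl2* was the one farthest apart. It stood at 1.49, 1.57 and 1.29 in B16-M and at 4.65, 4.95, 5.19 and 5.10 in M0-p20, 11.5-fold higher (log2 difference 3.52, SE 0.17, adjusted p = 3.22e-12, limma). *Birc2*, encoding cIAP1, stood at -1.68, -1.83 and -1.80 in B16-M and at -0.50, 0.31, 0.23 and 0.22 in M0-p20, 3.57-fold higher (adjusted p = 5.57e-08, limma). *Bcl2l1* was higher by 1.38 (adjusted p = 0.000683, limma) and *Bcl2l2*, encoding BCL-W, by 0.86 (adjusted p = 2.48e-05, limma). *Xiap* alone was lower in M0-p20, by a difference of -1.15 (adjusted p = 1.03e-08, limma), from 2.33, 2.25 and 2.43 in B16-M to 1.23, 1.26, 1.28 and 0.97. *Mcl1*, *Birc6* and *Cflar*, the inhibitor of caspase-8, were not called, with differences between -0.15 and 0.28.

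Among the BH3-only genes, 3 were higher in M0-p20. *Bbc3*, encoding PUMA, a target of p53, stood at -0.02, 0.29 and 0.61 in B16-M and at 2.59, 4.03, 3.72 and 3.52 in M0-p20, 9.01-fold higher (log2 difference 3.17, adjusted p = 9.77e-09, limma). *Bcl2l11*, encoding BIM, stood at -2.29, -1.79 and -1.51 in B16-M and at 0.47, 1.41, 0.94 and 0.99 in M0-p20, 7.05-fold higher (2.82, adjusted p = 3.19e-07, limma). *Bid* stood at 2.71, 3.11, 2.72 and 2.52 in M0-p20, 4.38-fold above B16-M (2.13, adjusted p = 2.43e-10, limma). No array of one line reached those of the other for these genes. Other probes of *Bcl2l11* gave 0.37 and 3.18, the latter with no B16-M array above the background, so that its size depends on the probe. *Bad* and *Bmf* were not called, at -0.04 and 0.36.

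Of the pyroptosis and caspase genes, *Gsdmd* had the largest difference of all members tested. It stood at 2.32, 3.24, 2.67 and 2.46 in M0-p20, 47.7-fold above B16-M (log2 difference 5.58, SE 0.29, adjusted p = 6.98e-12, limma). *Casp4* was 6.73-fold higher (2.75, SE 0.37, adjusted p = 4.3e-06, limma) and *Casp6* 3.11-fold higher (1.64, SE 0.30, adjusted p = 0.000124, limma), with arrays apart in both. *Casp2*, *Casp8* and *Casp9* were not called, with differences of -0.04, -0.28 and -0.01. A second probe of *Casp9*, above the background in both lines, gave 4.79, so that the level of this gene is uncertain.

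The mitochondrial factors mostly went the other way. *Cycs* stood at 5.62, 5.06, 4.99 and 4.67 in M0-p20, lower by a log2 difference of -1.55 (SE 0.20, adjusted p = 1.84e-06, limma). *Htra2* (-0.92, adjusted p = 0.000339, limma), a protease that binds IAPs, and *Aifm1* (-0.89, adjusted p = 3.69e-05, limma), the apoptosis-inducing factor, were also lower. *Apaf1* (0.77, adjusted p = 3.99e-06, limma) and *Diablo* (0.59, adjusted p = 0.000968, limma), encoding the IAP antagonist SMAC, were higher. Of the pore formers *Bax* was higher (0.47, adjusted p = 0.00962, limma), with 0.01 by a second probe, and *Bak1* lower (-0.30, adjusted p = 0.0357, limma).

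Of 3 death receptor and adaptor genes tested between the parental lines, 2 were lower in M0-p20, *Fadd* and *Tnfrsf1a*. *Fadd*, the adaptor of death receptors, stood at 0.92, 0.94 and 1.15 in B16-M and at 0.06, 0.07, -0.29 and -0.47 in M0-p20, a log2 difference of -1.16 (adjusted p = 6.15e-07, limma). *Ripk1* differed by -0.74 (adjusted p = 0.000939, limma) and *Tnfrsf1a*, the TNF receptor, by -0.69 (adjusted p = 0.0038, limma). *Tnfrsf10b*, the TRAIL receptor, and *Mlkl* were not called, at 0.41 and 0.23. *Bak1* lost its call without B16-M replicate 0 or 2 or M0-p20 replicate 2 or 3 (-0.31 to -0.23), while the other 20 calls held with any 1 array left out.

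**Figure D4:**
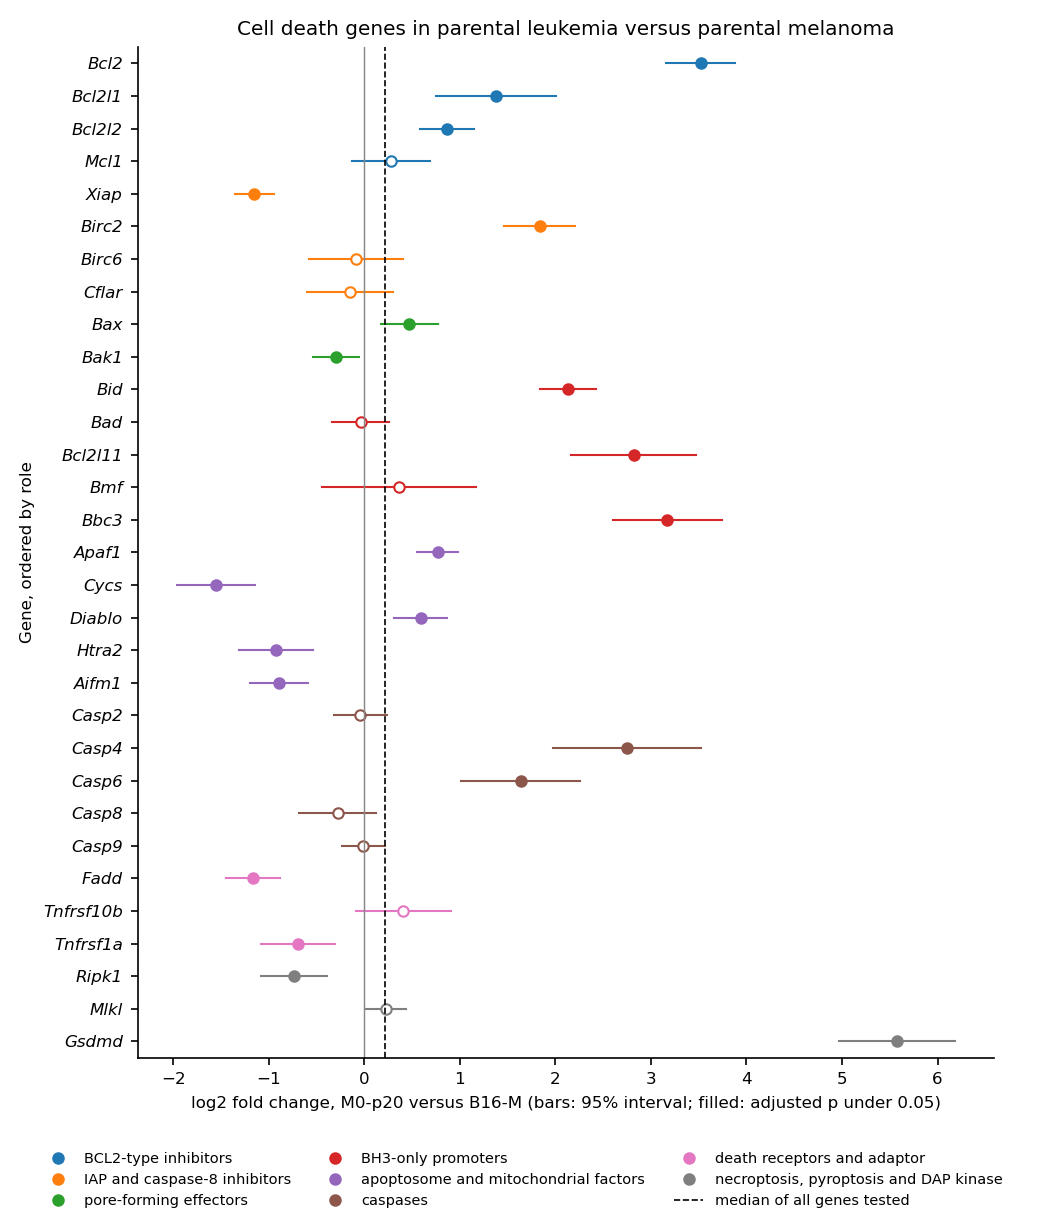
Log2 difference of M0-p20 minus B16-M (x axis) with its 95% interval for the 31 tested cell death genes, and the median of all genes, 0.22, as a dashed line. *Gsdmd* at 5.58 and *Bcl2* at 3.52 lie farthest to the right and *Cycs* at -1.55 farthest to the left.

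**Figure D5:**
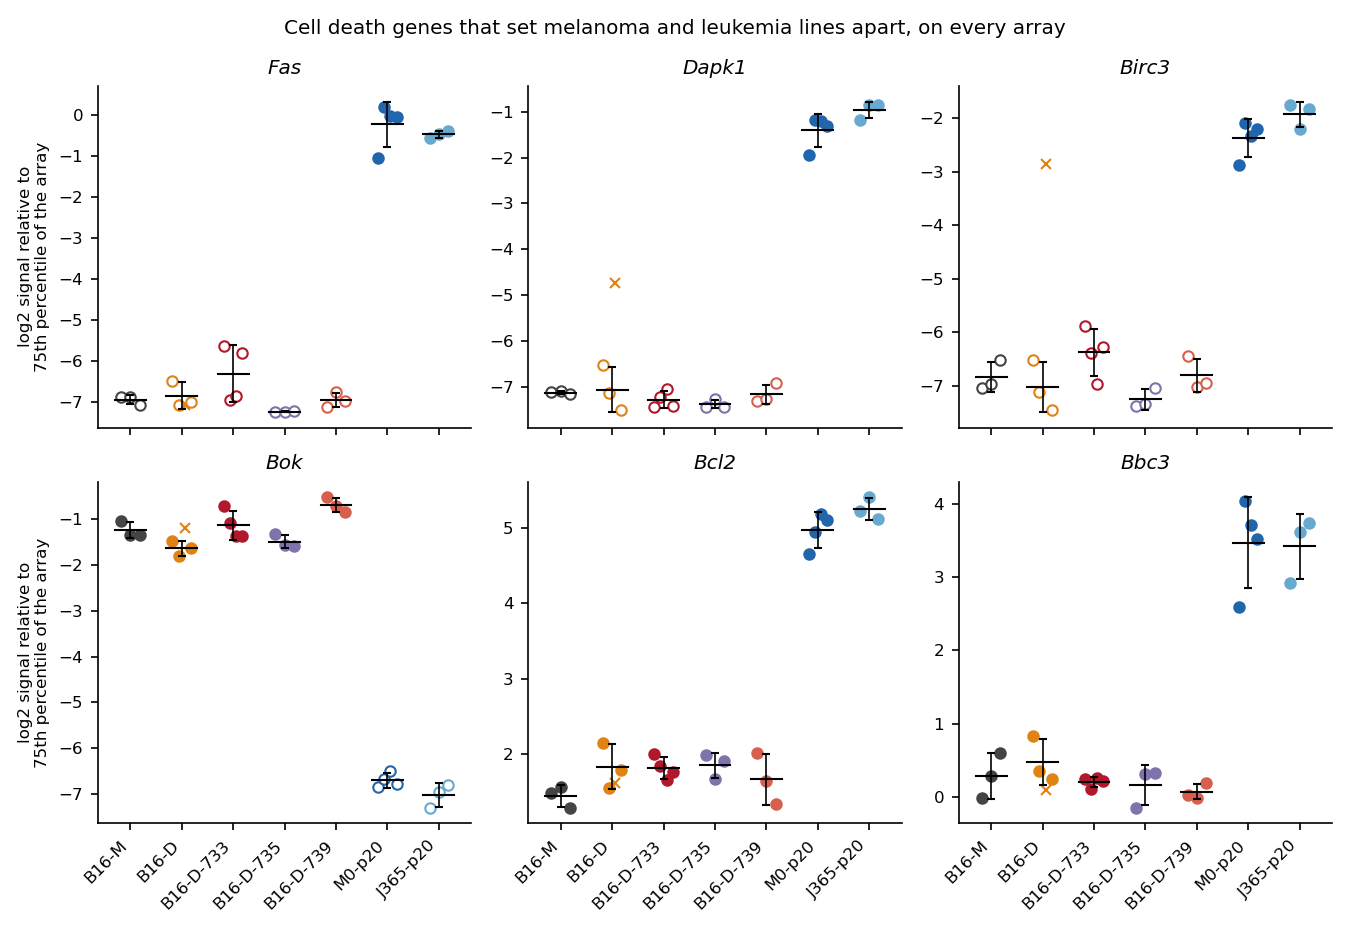
Level of *Fas*, *Dapk1*, *Birc3*, *Bok*, *Bcl2* and *Bbc3* on each array of the 7 lines (y axis, log2 signal relative to the 75th percentile of the array), drawn as points with open points not well above the background, crosses for B16-D replicate 2, and mean and SD as black lines. *Fas* lies between -1.05 and 0.20 in M0-p20 and is open on all melanoma arrays, and *Bok* is open on all leukemia arrays.

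Other genes of the same pathways were read from 4 lists chosen for their function. Of 21 other genes of the BCL2, caspase and IAP families, 13 were tested in melanoma. *Naip2*, a sensor of the inflammasome, rose in B16-D-733 (0.68, adjusted p = 0.00736, limma) and B16-D-739 (0.72, adjusted p = 0.00983, limma). No other gene of the list was called in these 2 lines, and none was in B16-D or B16-D-735 (limma, 3 and 2 at an unadjusted p under 0.05). From B16-D to B16-D-735, *Naip2* fell by 0.53 (adjusted p = 0.0364, limma) and *Bnip3*, which acts in mitophagy, by 1.42 (adjusted p = 0.0318, limma).
In J365-p20, 2 of 18 genes of this list rose, beside 1.07% of all genes that changed. They were *Bcl2a1d* and *Bcl2a1c*, which encode inhibitors related to BCL2. *Bcl2a1d* stood at -4.71 ± 0.11 (SD, n = 4) in M0-p20, well above the background on 1 of 4 arrays, and at -0.59 ± 0.41 (SD, n = 3) in J365-p20, a difference of 4.12 (adjusted p = 9.89e-05, limma). It passed the filter through the J365-p20 arrays, where it is high, and its M0-p20 level lies near the background, so that the size of the difference is uncertain. *Bcl2a1c*, on no M0-p20 array, was at least 1.20-fold higher in J365-p20 (adjusted p = 0.000395 with no filter on dim probes, limma). These paralogs are nearly identical in sequence, so that their probes may not tell them apart.

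Of 20 genes of death receptor and NF-kB adaptors, 17 were tested in melanoma, and 2 changed against B16-M. Both calls fell in B16-D-735, where 5.03% of all genes changed. *Rnf31*, a ligase of linear ubiquitin, rose (0.67, adjusted p = 0.0357, limma) and *Traf3* fell by 0.43 (adjusted p = 0.028, limma), both in B16-D-735. None was called in B16-D, B16-D-733 or B16-D-739 (limma, 2, 1 and 2 at an unadjusted p under 0.05). *Cradd*, the adaptor of caspase-2, rose from B16-D to B16-D-735 (0.50, adjusted p = 0.0292, limma). In leukemia none of 17 was called (limma, 1 at an unadjusted p under 0.05).

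Of 20 p53 target genes, 19 were tested in melanoma. *Perp*, which encodes a membrane protein of desmosomes and p53-dependent death, stood at -3.98 ± 0.24 (SD, n = 3) in B16-M and was well above the background on no array of a dormant line used. It entered the test through B16-M alone, so that its p-values come from the fit with no filter on dim probes. *Perp* was at least 1.97-fold lower in B16-D-733 (adjusted p = 0.00275, limma), 2.15-fold in B16-D-735 (adjusted p = 0.0337, limma) and 1.91-fold in B16-D-739 (adjusted p = 0.0141, limma). In B16-D the bound was 1.71-fold, and the call was lost without the filter (adjusted p = 0.0779, limma). *Gdf15*, a secreted stress protein, was well above the background on no B16-M array and was read in the same fit. It was at least 2.40-fold higher in B16-D-733 (adjusted p = 0.0109, limma) and 3.07-fold in B16-D-735 (adjusted p = 0.00711, limma). *Trp53inp1* rose in B16-D (1.01, adjusted p = 0.0477, limma), and *Ddit4*, an inhibitor of mTOR, fell by 1.42 in B16-D-739 (adjusted p = 0.00489, limma). No other gene of the list was called against B16-M.
In J365-p20 *Gdf15* fell by 2.45 (adjusted p = 0.00401, limma), from -1.32 ± 0.10 (SD, n = 4) to -3.77 ± 0.55 (SD, n = 3). The difference of the dormancy change between melanoma and leukemia passed for *Trp53inp1* (1.60, adjusted p = 0.0331, limma). No such value is given for *Gdf15*, which was well above the background on no B16-M array and on 1 of 3 B16-D arrays.

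Of 20 genes of inflammasomes, pyroptosis and ferroptosis, 17 were tested in melanoma. *Il18*, a cytokine released in pyroptosis, fell by 1.21 in B16-D-733 (adjusted p = 0.0206, limma) and by 1.24 in B16-D-739 (adjusted p = 0.0338, limma), and it rose by 1.59 in B16-D-735 (adjusted p = 0.00586, limma). *Aifm2*, which protects against ferroptosis, fell by 0.62 in B16-D-733 (adjusted p = 0.0412, limma). From B16-D to B16-D-735, 3 of 17 genes rose, where 8% of all genes changed. They were *Il18* (2.70, adjusted p = 8.25e-05, limma), *Pycard*, the adaptor of inflammasomes (1.92, adjusted p = 0.0355, limma), and *Aifm2* (0.85, adjusted p = 0.00891, limma). None was called in B16-D (limma, 4 at an unadjusted p under 0.05) or in J365-p20 (limma, 4 of 18 at an unadjusted p under 0.05). *Il18* without a call in B16-D still stood lower there than on every B16-M array. It was at -0.19, -1.29 and -1.48, with -1.12 on replicate 2, beside -0.06 to 0.22 in B16-M.

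Between the parental lines, higher in M0-p20 were 7 of 13 genes of the first list, 7 of 16 adaptor genes, 12 of 18 p53 targets and 5 of 16 inflammasome genes, and 3, 2, 2 and 3 were lower, beside 30.5% higher and 21.2% lower among all genes. The adaptor and inflammasome genes lay near the share of all genes that changed. *Casp1*, the caspase of inflammasomes, was higher by 5.87 (adjusted p = 2.09e-08, limma), with 1 of 3 B16-M arrays above the background. *Bnip3* was higher by 5.75 (adjusted p = 6.45e-09, limma), *Tnfaip3*, encoding the NF-kB inhibitor A20, by 4.40 (adjusted p = 4.56e-08, limma), again with 1 of 3 B16-M arrays above the background, and *Tigar* was lower, at -3.51 (adjusted p = 5.72e-12, limma).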

How the data were processed

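Total RNA of 7 mouse tumour lines was hybridized to 24 Agilent arrays of 1 colour on 3 slides of 8. The authors deposited the intensity of each spot after background subtraction and spatial detrending by Feature Extraction 10.7.3.1, per the file headers, on a build given as mm9, and the deposited series table holds the same intensities. No column of the files belonged to another sample. The paper names GeneSpring and no test for the arrays, and it names another series for them.

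From these intensities 59305 measuring spots of 62976 were used, 2468 outlier spots over all arrays were dropped, and spots of a probe were averaged (56605 probes). The log2 intensity was taken relative to the 75th percentile of the array. Probes were joined to 22907 gene symbols through RefSeq accessions (7898 symbols with several probes), and 22715 transcripts kept their identifier. Each gene is its brightest probe by the mean over 23 arrays.

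The lmFit and eBayes steps of limma 3.58.1 (R 4.3.3, two-sided) were run on 16 melanoma arrays, on 7 leukemia arrays and on all 23. A gene needed 3 arrays well above the background, and in the last case 3 in each model. Benjamini-Hochberg adjustment covered every gene tested in the same fit, and 0.05 was the threshold. A probe below the background throughout a line has a bound: the mean of the bright line against the lowest signal well above the background on each array of the dim line. The scripts were checked on simulated data. The number of arrays limits precision. Tables were handled in Python 3.11.15 with pandas 2.3.3, numpy 2.4.6 and scipy 1.17.1.

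The 41 genes and all lists were chosen with earlier results of these data known. Members called in any comparison are given with every array, at most 10 for a comparison, the others by ranges, and of each pathway list at most 3 called genes a comparison are named. A gene of the first pathway list is not reported here and was left out of that list's counts. Alternatives were the scaling, background correction (normexp with an offset of 50, on the median spot signal since the mean was not in the files), filters, probe choice, slide and replicate blocks, the arrays fitted and leaving out each array. Replicate numbers come from the sample titles. Residuals of the same number correlated at 0.58, 0.35 and 0.82 for B16-D-733 and B16-M and at 0.74, 0.58 and 0.83 for B16-D-739 and B16-M, so that these pairs were also blocked. B16-D-733 replicate 1 correlated at 0.30 with B16-M replicate 0 too. B16-D-735 replicate 1 and B16-M replicate 2, of different numbers on the same slide, correlated at 0.84.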

Additional observations from a re-analysis of the deposited data

Results flagged for a closer look

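Within groups of 4 arrays, 3 values of these genes lay far from the rest (beyond the 95% limit of Dixon's gap test, which chance passes in about 1 of 20 groups). They were *Dapk1* on M0-p20 replicate 0 at -1.94, below the other 3 arrays, *Fas* on B16-D replicate 0 at -6.48, where no B16-D array was well above the background, and *Mlkl* on B16-D replicate 0 at 1.68, above the other 3 arrays. B16-D was taken with all 4 arrays here. The search covered the genes called in melanoma with *Fas*, *Dapk1* and *Birc3*, in B16-D, B16-D-733 and M0-p20. Over so many groups a few such values can come by chance.

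The change from B16-M differed between the first and second generation of dormant melanoma lines for 5 genes, by the limma test of the difference, which is that of the second-generation line against B16-D. *Ripk3* differed by 1.94 in B16-D-733 and by 1.44 in B16-D-739. In B16-D-735 *Casp4* differed by 1.77, *Mcl1* by -0.57 and *Ripk1* by -0.63, and in B16-D-739 *Bok* differed by 0.94. Their arrays and adjusted p-values are given above.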

How the results depend on the processing

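Of 389 values of the 23 changes called in melanoma under other settings, 244 kept the call, 145 lost it and 0 reversed; of 378 values of the 21 differences between the parental lines, 360 kept it, 18 lost it and 0 reversed. *Ripk3* kept its call against B16-M in every fit with 1 array left out. Counts that moved by over 1.5 times follow, as genes called. Without a filter on dim probes they were 1 in B16-D, 1 in B16-D-733 and 2 in B16-D-735 against B16-M, 1 in B16-D-735 and 1 in B16-D-739 against B16-D, and 1 in the difference between the models. With normexp they were 3 in B16-D-735 against B16-M, 1 in J365-p20 against M0-p20 and 1 in the difference between the models. With only the arrays of the lines compared they were 0 in B16-D, 3 in B16-D-733, 1 in B16-D-735 and 1 in B16-D-739 against B16-M, and 0 in each second-generation line against B16-D. For B16-D against B16-M that fit tested 33 genes, without *Ripk3*, which was above the background on only 2 of its arrays. With quantile normalization B16-D-739 had 1 against B16-D. Where every array had to be above the background, B16-D-739 had 1 and B16-D-733 had 0 against B16-D. *Ripk3* could not pass that filter, as no B16-M array was above the background for it, so that 33 genes were tested. With B16-D replicate 2 they were 1 in B16-D, 2 in B16-D-733 and 3 in B16-D-735 against B16-M, and 1 in B16-D-735 and 0 in B16-D-739 against B16-D. With the slide as a block they were 8 in B16-D-735 against B16-M, 1 in B16-D-739 against B16-D and 1 in the difference between the models. With B16-D-733 replicates 1 and 9 averaged, an alternative chosen after seeing the data, they were 2 in B16-D-733 against B16-M and 1 in B16-D-739 against B16-D. The causes were not tested.

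With the replicate number as a block, B16-D-733 had 3 and B16-D-739 had 5 calls against B16-M, the latter adding *Bok* (0.55, adjusted p = 0.0293, limma). In the other comparisons residuals of the same number correlated unevenly, from -0.69 to 0.80. For B16-D-735 and B16-M the values were 0.80, -0.31 and -0.34. Some pairs of the same number also shared a slide, as B16-D-735 and B16-D replicate 1 (0.67) and J365-p20 and M0-p20 replicate 0 (0.51). There the block gave 0 for B16-D and 1 for B16-D-735 against B16-M, 0 for each second-generation line against B16-D, 0 for J365-p20 against M0-p20, 12 for M0-p20 against B16-M and 0 for the difference between the models. With 1 array left out in turn, counts ran from 1 to 3 in B16-D, 1 to 2 in B16-D-733, 2 to 3 in B16-D-735 and 1 to 4 in B16-D-739 against B16-M. They ran from 1 to 1 in B16-D-733, 0 to 6 in B16-D-735 and 0 to 1 in B16-D-739 against B16-D. They were 0 to 1 in J365-p20, 20 to 22 between the parental lines and 0 to 1 in the difference between the models. Signal near the background limits *Ripk3*, *Gsdmd* and the genes given as bounds.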
